A study of Arabidopsis thaliana with 12 samples.

Results

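The tau class of glutathione S-transferases is represented here by 8 genes that lie outside the gene cluster of chromosome 2: GSTU11, GSTU12, GSTU19, GSTU22, GSTU24, GSTU25 and ERD9 on chromosome 1, and GSTU8 on chromosome 3. They were found by their gene symbol in the deposited gene table, which gave 8 of its 800 features, and their exons were joined by transcript cluster, which gave 24 of the 4977 exons in the exon table. ERD9, early responsive to dehydration 9, is the tau-class gene also called GSTU17. Roots of Arabidopsis thaliana ecotype Col-0, 12 days old and of the same genotype in both groups, were compared after 12 h in gold solution (10 ppm, pH 4.2) and after parallel incubation in distilled water at the same pH. The gold salt is written HAuClO4 in the labels and HAuCl4 in the study's methods. Each group had 3 biological replicates of pooled seedlings and 3 AraGene arrays, and neither group received nutrient medium during the incubation. Because whole roots were extracted, a higher signal from more RNA per cell and one from more cells of an expressing type cannot be told apart.

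Glutathione S-transferases join the tripeptide glutathione to reactive or foreign molecules, which makes these more soluble and marks them for removal. The tau class is found in plants, and its genes are known for strong induction by herbicides, oxidative stress and stress hormones. In plant cells, the conjugates are carried into the vacuole by transporters of the ABCC family.

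The deposited tables give 1 averaged log2 signal for each group, a bi-weight average over the 3 arrays in which outlying arrays weigh less. The files used here hold no signal per array, so no value below carries a replicate error or a test, and overlap between replicates cannot be stated. The tables list only features with a difference of more than 2-fold and a p-value under 0.05 in the authors' comparison. A listed gene therefore had to differ, and the differences below describe the genes without supporting their choice. A difference is the gold signal minus the control signal on the log2 scale, and a fold is its value on the linear scale. Levels of different genes come from different probes and are not compared with each other.

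All 8 genes had a higher average signal in the gold-treated roots, by 2.13- to 9.58-fold, with a median difference of 1.50 on the log2 scale. Over all 800 listed gene features, 65.4% were higher in gold, and the median difference of those that were higher was 1.39. GSTU24 and GSTU25, which are neighbours on chromosome 1, had the largest differences. For the other 6 genes the folds ran only from 2.13 to 2.95, a span of 0.47 on the log2 scale.

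GSTU24 (AT1G17170), an enzyme known from work on the detoxification of explosives, averaged 5.67 on the log2 scale without gold and 8.93 with it. The difference of 3.26 is 9.58-fold, the 12th largest among the 419 listed features that name a gene and were higher in gold. GSTU25 (AT1G17180), known from the same work, went from 4.40 to 6.78. Its difference of 2.38, or 5.21-fold, ranked 39th of the 419. The median over its listed exons was larger, at 2.98 or 7.89-fold. These are the only genes of the 8 with a fold of at least 3. Of all listed gene features, 23.8% were higher in gold by at least 3-fold, which is 190 of the 523 that were higher. GSTU24 stood 0.88 above GSTU25 on the log2 scale, and GSTU25 stood 0.82 above the next gene, GSTU8. Without gold, GSTU24 and GSTU25 had log2 signals below 6, the level treated here as low.

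The study designed primer pairs for quantitative RT-PCR of these 2 genes only among the 8. They are shown because the genes are adjacent members of one class, and a primer must tell them apart. Each is given 5′ to 3′ as in the study's primer table, in lower case throughout.
GSTU24 forward primer: gcctgagtcagagaaggtcattac
GSTU24 reverse primer: caaagtagagatttactccaacccaag
GSTU25 forward primer: gagtgtggctaagtctcttcctgat
GSTU25 reverse primer: cagagcagaaacagcaacacaaacag
The oligonucleotides are 24 to 27 bases long, with a GC content from 40.7% to 50.0%. Between a primer of GSTU24 and a primer of GSTU25, read on either strand, the longest run of identical bases was 5. The primers were not compared with the transcript of the other gene, so this run does not show whether they tell the genes apart. Both genes lie on chromosome 1; the position of the primers within them was not determined, and results of the RT-PCR are not part of the tables. Signal shared between class members on the array, whose probe sequences were not analysed here, was not tested.

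**Figure D1:**
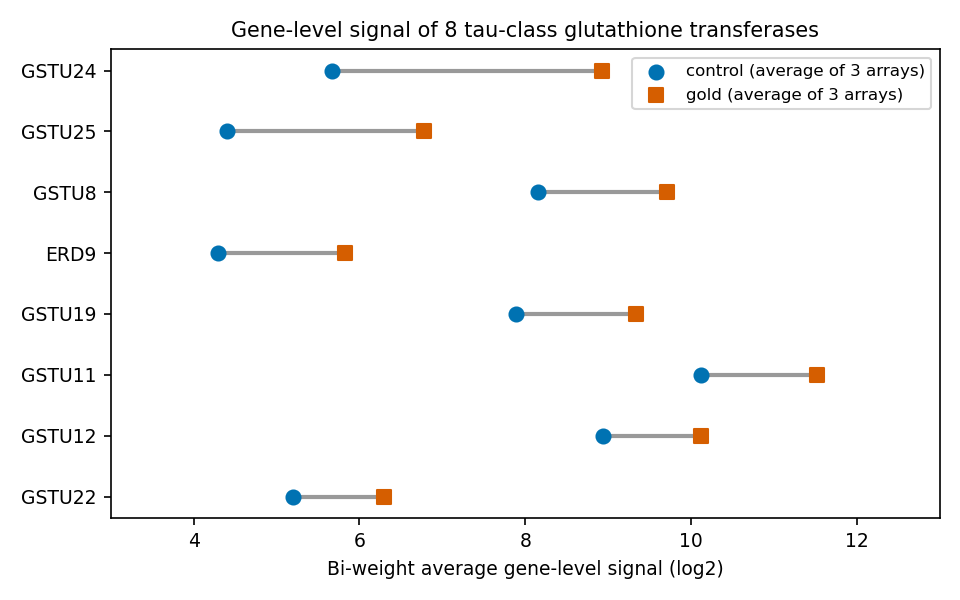
Average gene-level log2 signal (x axis) of the 8 genes (y axis, ordered by difference) in control roots (circles) and gold-treated roots (squares), each an average over 3 arrays with no error available. Every gold value lies to the right of its control value, and the line between them is longest for GSTU24, from 5.67 to 8.93.

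Intermediate differences were seen in 4 genes. GSTU8 (AT3G09270), the only one of the 8 on chromosome 3, went from a log2 signal of 8.15 to 9.71, a difference of 1.56. ERD9 (AT1G10370), a gene known for its induction by dehydration and for roles in light and abscisic acid signaling, went from 4.29 to 5.83, a difference of 1.54. This gene had a log2 signal below 6 in both groups, which was treated as low, and it was the only one of the 8 whose brighter group was below 6. GSTU19 (AT1G78380), known as one of the abundant glutathione S-transferases of Arabidopsis, went from 7.89 to 9.34, a difference of 1.45. For GSTU11 (AT1G69930) the signals were 10.12 and 11.52, a difference of 1.40. These 4 differences lie within 0.16 of each other, and the tables give no replicate spread by which to order them.

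The smallest differences were those of GSTU12 (AT1G69920) and GSTU22 (AT1G78340). GSTU12 went from 8.94 to 10.12, which is 2.27-fold. GSTU22 went from 5.20 to 6.29, which is 2.13-fold and just inside the listing criterion. No value is given here for tau-class genes just outside it, since the tables used leave these out.

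Among the 419 listed features that name a gene and were higher in gold, 96.9% had a smaller difference than GSTU24 and 90.7% a smaller one than GSTU25. For the other 6 genes this share ran from 12.9% for GSTU22 to 62.5% for GSTU8. The 8 genes were spread over most of the ranks of the listed genes, and GSTU11 and GSTU19 were near its middle, with 50.4% and 54.9%. Genes with the closest difference were looked up among the 230 listed features, higher or lower in gold, that lie outside the glutathione S-transferases, name a single locus and carry a gene symbol rather than a locus code alone. Within these, over the 2 conditions, the closest to GSTU24 were PDR12 at 3.26, CYP71A12 at 3.31 and AOX1D at 3.35 on the log2 scale. Within the same 230, the closest to GSTU22 at 1.09 were MYB112 and PAD3, both at 1.09, and AOC2 at 1.08. The last was taken in alphabetical order among several equally distant genes, as 7 of the 230 were within 0.01 of GSTU22.

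**Figure D2:**
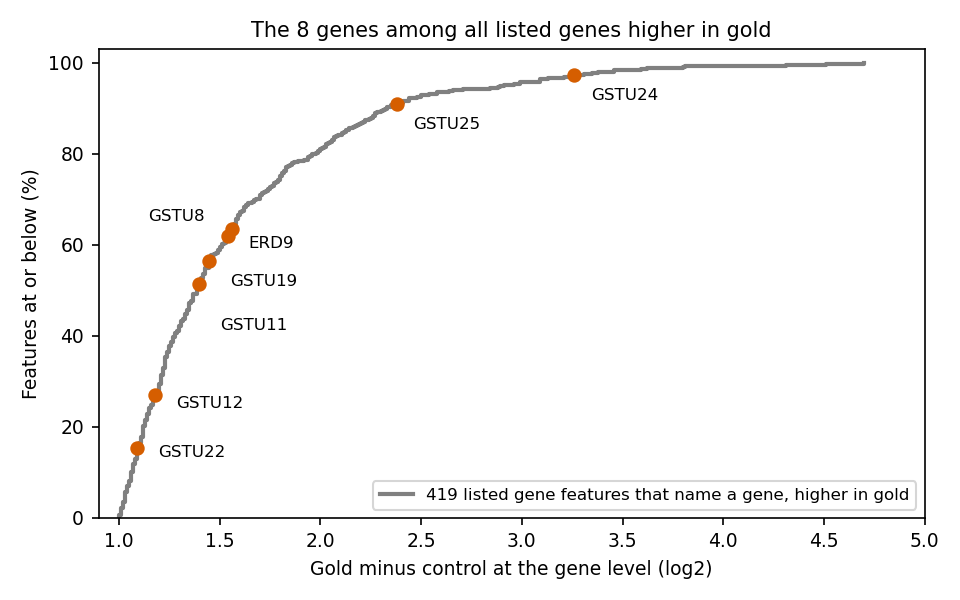
Cumulative share (y axis, %) of the 419 listed gene features that name a gene and were higher in gold, against their gold minus control difference (x axis, log2), with the 8 genes as points. GSTU24 at 3.26 and GSTU25 at 2.38 sit in the flat upper part of the curve, and the other 6 points lie between 1.09 and 1.56 on its steep part.

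The array carries several probe regions along each gene, called exons in the exon table. All 24 listed exons of the 8 genes were higher in gold, by 2.16- to 12.55-fold, against 54.6% of all 4977 listed exons. These 24 belong to genes already listed as higher in gold on the same arrays, so nothing is read from their shared direction. A fold of at least 3 was reached by 13 of the 24 exons, among them all 7 of GSTU24 and GSTU25. Of all listed exons, 21.9% were higher in gold by at least 3-fold, which is 1092 of the 2715 that were higher. Exons below the criteria are not in the table, so the listed exons of a gene do not show its whole length.

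In GSTU24 the 4 listed exons had nearly equal differences, 3.43, 3.43, 3.45 and 3.65 on the log2 scale. This range of 0.22 was narrow: of the 50 listed features higher in gold with 4 listed exons, all of them higher, 5 had a narrower range, and the median range was 0.61. The 3 listed exons of GSTU25 were spread further, with differences of 2.61, 2.98 and 3.60 and a range of 0.99. Among the 80 features with 3 such exons the median range was 0.40, and 83.8% were narrower than GSTU25. The exon of GSTU25 with the difference of 3.60 went from a low log2 signal of 2.90 to 6.50, and that difference was close to those of the GSTU24 exons. All 7 exons of this gene pair exceeded the difference of their own gene feature.

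GSTU8 had the narrowest exon range of the 7 genes with 2 or more listed exons, 0.15 on the log2 scale, with differences of 1.45, 1.59 and 1.60. Only 5.0% of the 80 features with 3 listed exons were narrower. Exons under the 2-fold criterion are not listed, so exon ranges can be cut short, more so in genes with small differences. In ERD9 the differences were 1.43, 1.57 and 2.01. The log2 signals of these exons, control before gold, were 6.75 and 8.18, 8.29 and 9.86, and 3.51 and 5.52. Only the last was low in both groups, as the gene feature of ERD9 was. In GSTU22 the differences were 1.21 and 1.53, and the exon with 1.21 was low in both groups, at 2.86 and 4.07. GSTU12 had a single listed exon, with log2 signals of 9.69 and 10.98 and a difference of 1.29.

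GSTU11 and GSTU19 had 4 listed exons each, spread on both sides of the gene-level difference. The exons of GSTU11 differed by 1.14, 1.26, 1.50 and 1.98, a range of 0.84 that was wider than in 78.0% of the 50 features with 4 such exons. Those of GSTU19 differed by 1.11, 1.25, 1.63 and 1.69, a range of 0.58 near the median of 0.61. Of the 24 exons, 18, or 75.0%, exceeded the difference of their gene, against 62.9% of the 1503 listed exons of all named features higher in gold.

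**Figure D3:**
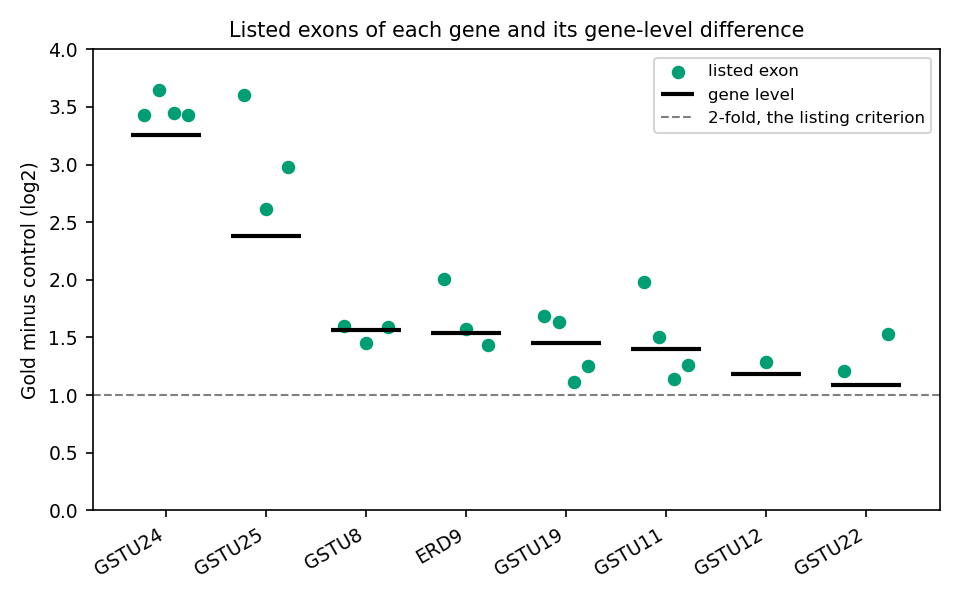
Gold minus control difference (y axis, log2) of each listed exon (points, in the order of their probe region numbers) and of the gene feature (bars) for the 8 genes (x axis), with the 2-fold listing criterion as a dashed line. The points of GSTU24 lie together between 3.43 and 3.65, while those of GSTU25 run from 2.61 to 3.60.

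The class has 28 genes in the list used, and all 28 were found in the RefSeq annotation of TAIR10.1, which was used for gene order only. Of the 20 on chromosomes 1 and 3, 8, or 40.0%, had a listed gene feature. Over all 27562 protein-coding genes of that annotation the share was 2.30%, but being listed is what made these genes members, so nothing is read from this contrast. The other 12 genes of these chromosomes had no listed gene feature. Of these, 11 (GSTU10, GSTU13, GSTU14, GSTU15, GSTU16, GSTU18, GSTU20, GSTU21, GSTU23, GSTU27 and GSTU28) are in neither table, and GSTU9, the only one on chromosome 5, is not either. For these genes the tables do not tell whether the signal was absent, equal or different by less than the criteria.

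The genes not listed are interspersed with those listed. GSTU24, GSTU25 and GSTU26 follow each other without another protein-coding gene between them. GSTU26 has no listed gene feature, and its single listed exon was lower in gold, at 8.98 on the log2 scale against 10.66 in control roots. Its difference was -1.68, or 3.20-fold in the opposite direction, beside the 2 largest positive differences among the 8 genes, and it was the only one of the 25 listed tau-class exons on chromosomes 1 and 3 that was lower. GSTU11 and GSTU12 are also direct neighbours, and both are listed, with differences of 1.40 and 1.18. ERD9 is listed at 1.54 while its neighbour GSTU18 is in neither table. GSTU19 and GSTU22 stand in a row of 5 tau-class genes with GSTU20, GSTU21 and GSTU23, none of which is in either table.

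**Figure D4:**
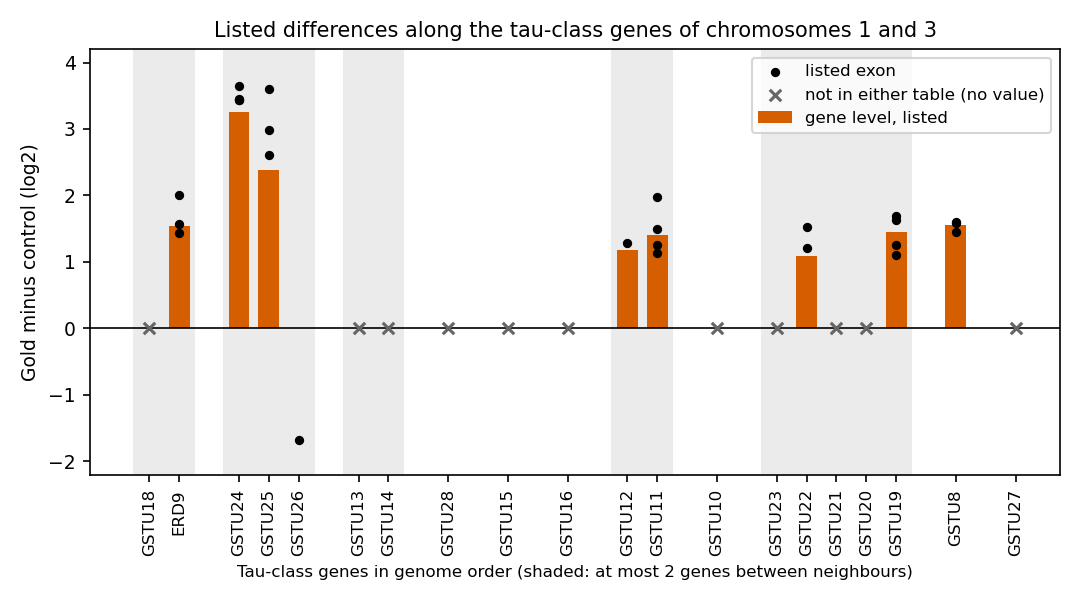
Gold minus control difference (y axis, log2) at the gene level (bars) and for listed exons (points) of the 20 tau-class genes of chromosomes 1 and 3 in genome order (x axis), with shading for runs of tau-class genes with at most 2 other genes between neighbours. Crosses at 0 mark the 11 genes in neither table, which have no value here, and the point below 0 is the exon of GSTU26 at -1.68.

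The tau-class genes of chromosome 2 and the phi class were set beside these genes without a test, since no replicate values were at hand. The 6 listed tau-class genes of chromosome 2 were all higher in gold, with differences from 1.41 to 2.20 and a median of 2.04 on the log2 scale. GSTU24 and GSTU25 lay above that range, GSTU8, ERD9 and GSTU19 within it, and GSTU12 and GSTU22 below it. GSTU11, at 1.40, lay at its lower edge, as signals are printed only to 0.01. The phi class was mixed in direction, with 3 of 5 listed genes higher in gold and 2 lower, and its differences ran from -2.21 to 2.35. Of all listed gene features 65.4% were higher, so nothing is read from this mix in so few genes. GSTL1, the single listed lambda-class gene, had the same difference as GSTU19, 1.45.

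Chosen genes of glutathione supply and of conjugate handling, 12 in all, were looked up as well. None of them was listed at the gene level, where the share over all protein-coding genes was 2.30%, so that a count of 0 among so few says little. Glutathione synthesis and reduction was represented by 7 genes, of which 1, GSH1, had a listed exon. GSH1 makes the precursor of glutathione in the limiting step of its synthesis, and that exon went from a log2 signal of 5.67 to 7.53. Transport and breakdown of glutathione conjugates was represented by 5 genes. The vacuolar transporters ABCC1 and ABCC2 had 3 listed exons each, all higher in gold, by 2.10- to 2.48-fold and by 2.00- to 3.36-fold. ABCC3, GGT1 and GGT4 were in neither table. Over all 4977 listed exons, 54.6% were higher in gold. The share of all genes with a listed exon was not computed, so these exon counts have no background and nothing is read from them.

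TGA factors are bZIP proteins known to bind the promoters of several tau-class genes. Of the 7 in the list, TGA1 had 1 listed exon, which was lower in gold, from 5.61 to 3.80 on the log2 scale, and the other 6 were in neither table. Of 5 root genes used to check the tissue, the root hair genes COBL9 and EXPA7 had 1 listed exon each, with differences of -1.48 and -1.01, and of 4 leaf genes none was in either table. For these counts too, the share of all genes with a listed exon was not computed. Since unlisted genes have no value in the tables used, the tissue label was not checked further. The part of root hair cells in the differences above was not tested.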

How the data were processed

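Roots were measured on AraGene-1_0-st arrays, 3 control and 3 gold-treated, and each of these 6 arrays was deposited as 2 samples, summarized once by gene and once by exon, 12 in all. Groups came from the sample titles. Per the labels and the study's methods, the authors ran RMA on the intensities in Expression Console and tested gold against control with the Transcriptome Analysis Console, on the tair10 annotation; RMA brings all arrays to one distribution, so differences are relative to the array as a whole. The deposited log2 signals are the authors' bi-weight averages over the 3 arrays of a group, printed to 0.01. The tables also hold the authors' fold change, p-value and FDR, which were not used here.

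Differences and folds were computed from the averaged signals with Python 3.11.15, numpy 2.4.6 and pandas 2.3.3, and figures were drawn with matplotlib 3.10.9. The subtraction, fold and direction were checked on simulated shifts without noise, which tests neither the matching of genes nor the ranks. Arrays have no depth; their number limits the precision, which cannot be estimated from averages. Of 636 loci named by listed gene features, 634 were in the RefSeq annotation of TAIR10.1. The 171 gene features that name no gene stayed out of ranks among named genes. Named were all 8 genes, every gene of the fixed tau-class, glutathione and TGA lists found in either table, and, within the 230 listed features outside the glutathione S-transferases that name 1 locus and a gene symbol, the 3 closest in difference to the highest and the lowest of the 8. Other genes, the unlisted and marker genes among them, are named only to account for their lists. The genes and lists were chosen with earlier results of these data known. Alternatives were a fold of at least 3, a log2 signal of at least 6, matching by locus, joining exons by symbol or locus, matching the class by symbol alone, and the median of listed exons in place of the gene feature.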

Additional observations from a re-analysis of the deposited data

How the results depend on the processing

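A fold of at least 3 left 2 of the 8 genes and 13 of the 24 exons. A log2 signal of at least 6 in the brighter group left 7 genes and 22 exons, and moved the median difference from 1.50 to 1.45. GSTU22, GSTU24 and GSTU25 stayed in with control signals of 5.20, 5.67 and 4.40 on the log2 scale. The median over listed exons gave 1.50 again. Taken gene by gene, it kept the direction of all 8, was larger in 6, and shifted the difference by -0.02 to 0.60, most in GSTU25, from 2.38 to 2.98. Matching by locus gave the same 8 genes, joining exons by symbol or locus gave 24 exons, and matching the class by symbol alone gave 7 genes, without ERD9. Protein identity and promoter motifs were not run. No paired analysis was possible because the 2 tables used hold group averages, whose columns carry no replicate, and for the same reason no replicate was left out; signals of the single arrays were not used here.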
